A study of Homo sapiens with 6 samples.

Results

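Antisense non-coding genes are genes that the annotation places on the strand opposite to another gene, most often a protein-coding one. They were taken here as the rows of the count table with the biotype antisense and a sum of at least 60 counts over the 6 libraries, leaving out KCNQ1OT1, ZFAS1, HOTAIR and the SNHG genes, and 866 of the 5583 antisense rows met this rule. The table holds 58735 genes in all. Of the other antisense rows, 1985 had no count in any library, 2725 had between 1 and 59 counts, and 7 were left out by name. The sum used all 6 libraries together and not the difference between the groups, but a gene near the limit could pass through the counts of 1 group alone. RNA sequencing was done on the established human glioblastoma line LN229, on 3 libraries of cells overexpressing the non-coding gene HSD52 (HSD52_OE) and on 3 with the genotype label WT (control). All 6 are the same cell line, and no drug or time point separates them. Nothing in the sources used here says which vector carried HSD52, whether the control cells carried an empty one, or whether the replicates were separate cultures, so the p-values speak only of the variation among these libraries, part of which may be technical.

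Antisense transcripts can arise from a start site inside the coding gene, from a promoter shared with it and read in both directions, or from a gene that runs into the coding gene from the far end. Some are known to act on the chromatin, transcription or RNA stability of the gene they overlap, and for many no function is known. They are often spliced, kept in the nucleus, and present at far lower levels than coding messenger RNA.

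The biotype was checked against coordinates. Of the 866 genes, 759 overlapped a protein-coding gene on the opposite strand, 101 overlapped none and were paired with the nearest one, and 6 overlapped a coding gene on their own strand only. These 866 genes were paired with 826 distinct coding genes, and 37 coding partners had more than 1 antisense gene. The libraries were made by poly-T selection and random hexamer priming, with a second strand of plain nucleotides, and the sources used here give no strand setting for the counting. Reads of the antisense gene and from the coding gene over it therefore cannot be told apart where both lie, which makes the level of every overlapping gene below uncertain.

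Promoter sequence is shown for 4 pairs described below whose RefSeq windows overlap, so that by RefSeq both genes start from 1 stretch of DNA. Of 14 named pairs that overlap or start head to head and have both genes in RefSeq, 5 had overlapping windows, and the 4 with the larger difference between antisense and coding gene were taken after their values were seen. The windows run from 250 bases before to 50 bases after the RefSeq start (GRCh38.p14), 5′ to 3′ on the gene's own strand, and capitals mark matches on either strand. The motifs found were GGGCGG, whose neighbouring matches can share bases, the cyclic AMP response element TGACGTCA, the E-box CACGTG and the palindromic NRF1 motif centred on GCATGC. The TATA box (TATAAA), the CCAAT box, the AP-1 site (TGAGTCA) and the ETS site (CCGGAAGT) were also searched and are absent from these windows. AC092159.2, which rose, is listed in RefSeq as TMEM18-DT and starts 122 bp from TMEM18, and its window holds none of the motifs.
AC092159.2 (chr2:677278-677577, plus strand): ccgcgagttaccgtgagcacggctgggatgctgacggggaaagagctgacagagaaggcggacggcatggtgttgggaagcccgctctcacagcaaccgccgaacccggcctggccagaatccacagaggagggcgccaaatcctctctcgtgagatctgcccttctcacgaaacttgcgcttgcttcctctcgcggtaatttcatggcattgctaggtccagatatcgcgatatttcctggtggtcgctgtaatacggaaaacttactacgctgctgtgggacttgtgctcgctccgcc
CTBP1-DT starts 310 bp from CTBP1, and its window holds GGGCGG 7 times.
CTBP1-DT (chr4:1249190-1249489, plus strand): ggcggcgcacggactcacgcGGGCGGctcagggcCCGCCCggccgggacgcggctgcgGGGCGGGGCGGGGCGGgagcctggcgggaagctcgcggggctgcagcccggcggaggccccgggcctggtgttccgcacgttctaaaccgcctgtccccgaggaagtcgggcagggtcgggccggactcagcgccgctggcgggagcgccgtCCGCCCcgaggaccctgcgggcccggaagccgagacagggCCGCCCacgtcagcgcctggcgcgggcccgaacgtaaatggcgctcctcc
HHIP-AS1, which fell, starts 137 bp from HHIP in RefSeq, and both windows, which overlap by 236 bp, hold GGGCGG 3 times and TGACGTCA once. In the annotation used for counting, HHIP-AS1 has its outermost start 15336 bp from that of HHIP, inside HHIP and not in the printed window.
HHIP-AS1 (chr4:144645970-144646269, minus strand): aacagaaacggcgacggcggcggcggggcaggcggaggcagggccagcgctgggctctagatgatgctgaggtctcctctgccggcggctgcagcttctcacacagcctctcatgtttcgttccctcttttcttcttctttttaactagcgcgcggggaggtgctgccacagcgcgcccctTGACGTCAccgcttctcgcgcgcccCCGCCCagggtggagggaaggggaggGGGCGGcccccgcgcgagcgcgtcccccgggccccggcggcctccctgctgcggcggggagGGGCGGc
HHIP (chr4:144645906-144646205, plus strand): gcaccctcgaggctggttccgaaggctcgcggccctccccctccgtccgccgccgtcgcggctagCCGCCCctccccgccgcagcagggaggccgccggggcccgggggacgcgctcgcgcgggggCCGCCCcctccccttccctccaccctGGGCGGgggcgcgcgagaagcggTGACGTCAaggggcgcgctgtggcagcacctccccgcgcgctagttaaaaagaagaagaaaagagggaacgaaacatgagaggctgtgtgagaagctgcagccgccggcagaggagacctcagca
MAFG-DT, which also fell, is listed in RefSeq as MILIP and starts 94 bp from MAFG. Both windows hold CACGTG and the NRF1 motif once each, and GGGCGG lies once in the MAFG window alone.
MAFG-DT (chr17:81927579-81927878, plus strand): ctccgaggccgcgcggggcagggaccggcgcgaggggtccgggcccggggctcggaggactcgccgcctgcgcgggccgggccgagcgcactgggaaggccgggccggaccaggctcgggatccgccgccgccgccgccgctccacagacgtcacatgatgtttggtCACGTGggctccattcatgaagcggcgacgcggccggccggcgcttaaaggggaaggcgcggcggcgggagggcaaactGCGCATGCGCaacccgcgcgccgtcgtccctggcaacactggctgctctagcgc
MAFG (chr17:81927686-81927985, minus strand): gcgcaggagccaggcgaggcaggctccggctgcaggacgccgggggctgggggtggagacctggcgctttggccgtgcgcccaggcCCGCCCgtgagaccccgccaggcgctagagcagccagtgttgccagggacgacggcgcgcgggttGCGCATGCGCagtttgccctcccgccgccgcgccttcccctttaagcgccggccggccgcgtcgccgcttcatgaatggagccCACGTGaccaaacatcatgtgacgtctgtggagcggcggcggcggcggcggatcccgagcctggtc
GGGCGG, the core of the GC box, was found in 60.8% of the 480 RefSeq windows of the antisense genes and in 45.0% of all 35116 windows. TATAAA was found in 6.25% of the antisense windows and in 11.5% of all. TGACGTCA was found in 3.13% and 1.85%, CACGTG in 9.17% and 7.26%, and the NRF1 motif in 1.88% and 1.24%. The median number of CpG dinucleotides per window was 24 for the antisense genes and 14 for all. These matches describe letters and are not binding sites, and 401 of the 866 genes were matched to RefSeq by symbol.

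HSD52 itself rose from 0.569 ± 0.148 to 68.1 ± 1.22 CPM (counts scaled to library size by TMM, SD, n = 3), a log2 fold change of 6.89 ± 0.15 (SE, edgeR quasi-likelihood test, adjusted p = 8.95e-14). Library totals ran from 17777157 to 18917790 counts, so 1 CPM was about 18 counts. The markers listed for a glioblastoma line, VIM, NES, CD44, EGFR, S100B, SOX2 and OLIG2, were present in every library, and GFAP lay between 3.15 and 8.06 CPM. EGFR fell from 52.4 ± 6.04 to 25.4 ± 3.17 CPM (adjusted p = 2.85e-06). CD44 and S100B fell by 0.30 ± 0.10 and 0.43 ± 0.10 on the log2 scale. SOX2 and GFAP rose by 0.34 ± 0.08 and 0.59 ± 0.21, and VIM, NES and OLIG2 were not called. AIF1 of microglia was at 0 in every library, and EPCAM and CDH5 reached at most 0.0508 and 0.0555 CPM. The epithelial keratin gene KRT8 rose from 25.7 ± 2.33 to 50.3 ± 1.56 CPM (adjusted p = 1.13e-06). PECAM1 of endothelium fell from 0.910 ± 0.299 to 0.173 ± 0.0566 CPM (adjusted p = 0.00113). PTPRC of leukocytes, MBP of oligodendrocytes and RBFOX3 of neurons stayed under 1 CPM. The part of these markers in the antisense result was not tested. Control libraries differed from each other more than HSD52_OE libraries did, with a chi-square per degree of freedom over genes of 18.2 to 22.5 against 2.41 to 4.02 between pairs, and no pair was within sampling noise. Genes with at least 1 count numbered 23165 ± 350 per control library and 26558 ± 198 per HSD52_OE library.

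The antisense genes were higher in the HSD52_OE libraries far more often than lower. Their part of all counts was 0.220%, 0.237% and 0.245% in the 3 control libraries. With HSD52_OE it was 0.364%, 0.359% and 0.353%. The groups did not overlap, with means of 0.234% ± 0.0128 and 0.359% ± 0.00577. The 866 genes all had a count in each HSD52_OE library, against 853 to 864 of them in the control libraries. Genes were admitted by their summed count over both groups. A gene nearly absent from control could therefore enter through its HSD52_OE counts, and the reverse. These detection counts depend in part on that rule, and their difference was not tested. The median antisense gene stood at 1.07 ± 0.0737 CPM in control and 1.69 ± 0.0545 CPM in HSD52_OE. In bulk RNA, fewer cells that make a transcript and less of it per cell cannot be told apart.

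By edgeR's quasi-likelihood test over 16322 genes, with Benjamini-Hochberg adjustment over all of them and a threshold of 0.05, 364 of the 854 antisense genes tested rose (42.6%), 25 fell (2.93%) and 465 were not called. Of all genes tested, 50.6% were called, 25.0% as higher and 25.6% as lower. With a fold of at least 2 as well, 273 antisense genes rose and 12 fell, against 10.5% and 3.49% of all genes tested. The median log2 fold change, HSD52_OE over control, was 0.59 for the antisense genes and 0.01 for all genes tested, and the middle 50% of antisense genes lay between 0.11 and 1.27. All 3 HSD52_OE libraries lay above all 3 control libraries for 430 antisense genes and below them for 41, against 29.6% and 29.3% of all genes tested. The other 12 antisense genes, with sums of 60 to 72 counts, were below the count filter and were not tested. With library totals in place of TMM, 14 antisense genes fell, and without HSD52_OE replicate 2, 16 fell.

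Low-level genes of other kinds also rose more often than they fell, so the antisense genes were set beside coding genes in the same range of mean level. Up to a mean of 1 CPM, 41.2% of 296 antisense genes rose, against 32.6% of coding genes, and 1.69% against 7.13% fell. Between 1 and 5 CPM, 42.3% of 435 rose, against 32.5% of coding genes, and 2.30% against 15.5% fell. Above 5 CPM, 47.2% of 123 antisense genes rose, against 19.0% of coding genes, and 8.13% against 33.7% fell. The share that rose was thus higher for antisense than for coding genes in each of the 3 ranges, by the widest margin above 5 CPM. That range has no upper limit and holds 10869 of the 13155 coding genes tested. The median antisense gene in it averaged 9.11 CPM, and levels within the range were not matched. Of all genes tested, antisense genes among them, 39.2%, 35.2% and 20.2% rose in the 3 ranges, and 4.16%, 11.4% and 32.6% fell. A gene of low level, whatever its class, could pass the count filter through 1 group alone. Other non-coding classes had like shares. Of 818 lincRNA genes tested, 41.4% rose and 6.36% fell, and of 117 sense intronic genes, 49.6% rose and 1.71% fell. In the 3 ranges, 43.1%, 38.5% and 46.5% of lincRNA genes rose, near the antisense shares. For sense intronic genes these shares were 49.2%, 46.7% and 63.6%, the last of 11 genes. Sense intronic genes took 0.0210% ± 0.00143 of counts in control and 0.0387% ± 0.00189 in HSD52_OE. A list of 7 nuclear-retained transcripts had a summed level of 868 ± 42.4 CPM in control against 1694 ± 139 CPM with HSD52_OE, most of it from NORAD in control (531 ± 41.7 and 727 ± 7.78 CPM). MALAT1 (62.9 ± 13.2 and 340 ± 76.7 CPM) and NEAT1 (97.6 ± 4.36 and 363 ± 54.8 CPM) rose by 2.43 ± 0.20 and 1.90 ± 0.11 on the log2 scale, and MEG3 was at 0 in all 6. The part of these differences in the antisense result was not tested.

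Position relative to the coding partner went with the size of the difference. The 268 antisense genes that lie wholly within their partner had the largest median, a log2 fold change of 1.04, with 146 of 265 tested higher and 4 lower. Antisense genes that overlap the partner's start head to head had a median of 0.42, with 89 of 252 higher and 11 lower. Those that overlap the partner's end tail to tail had a median of 0.55, with 70 of 185 higher and 3 lower. The 47 that span the whole partner had a median of 0.39, with 19 of 46 higher and 2 lower. The 65 that start divergently within 2 kb without overlap, at a median distance of 141 bp between starts, had a median of 0.49, with 29 higher and 4 lower. The coding partners of these classes had medians of -0.05, -0.07, -0.05, 0.04 and -0.10 in the same order. Of 12 antisense genes with no overlap and a nearest partner on their own strand, 2 rose and 0 fell (median -0.21). The smallest classes were 15 convergent genes without overlap, with 5 higher and 1 lower, 9 divergent beyond 2 kb, with 2 higher and 0 lower, and 6 with a same-strand overlap, with 2 of 5 tested higher. The tested partners of the divergent genes beyond 2 kb had a median of -0.55 (n = 7), those of the same-strand genes without overlap -0.21 (n = 11) and those of the convergent genes 0.03 (n = 14). The differences between classes were not tested.

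**Figure D1:**
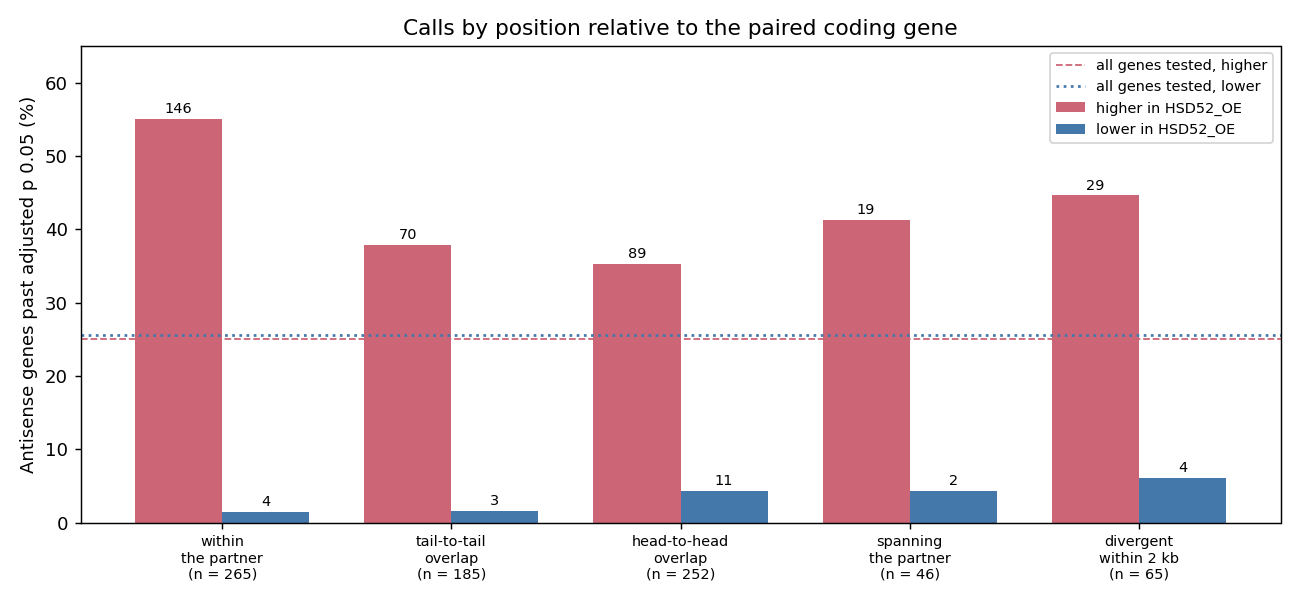
Share of antisense genes called higher (red) or lower (blue) in HSD52_OE, in percent of those tested, by position relative to the coding partner, with the number of genes above each bar. Dashed and dotted lines give the shares of all 16322 genes, 25.0% and 25.6%. The genes within their partner stand highest, with 146 of 265.

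The share of exon bases that lie in introns of coding genes went the same way. Of the antisense genes with no exon base in a coding intron, 77 of 217 rose and 6 fell (median log2 fold change 0.44). With up to 50% of exon bases there, 97 of 274 rose and 13 fell (median 0.51). Between 50% and 99%, 137 of 257 rose and 3 fell (median 1.0), and above 99%, 53 of 106 rose and 3 fell (median 0.76). The contrast was present at low levels and small at high ones. Up to 1 CPM, 28.9% of genes with at most 50% of exon bases in coding introns rose, against 54.2% of the others. Between 1 and 5 CPM the shares were 36.0% and 51.1%, and above 5 CPM 45.3% and 51.4%. Single-exon antisense genes, 85 of 168 higher, and those with 3 or more exons, 179 of 428 higher, both leaned upward. The 77 tested that overlap no other annotated gene on either strand had 33 higher and 5 lower and a median of 0.47. Genes that rose had a median length of 2073 bp, 48.6% GC and 53.9% of exon bases in coding introns. Those that fell had 1557 bp, 53.1% GC and 19.4%, and those not called 1650 bp, 50.5% GC and 25.2%.

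**Figure D2:**
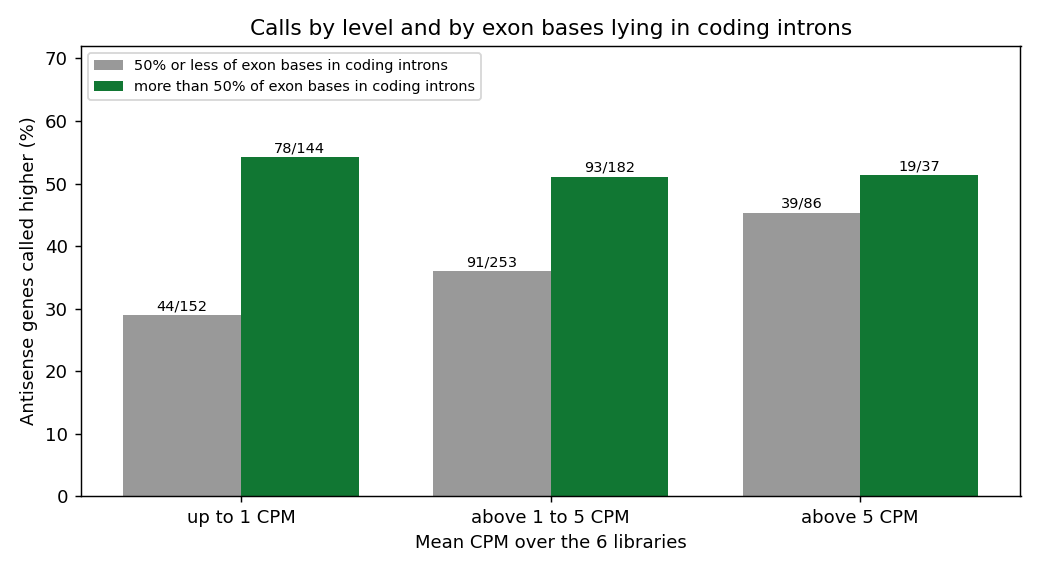
Share of antisense genes called higher in HSD52_OE, in percent, by mean CPM over the 6 libraries and by whether more than 50% of their exon bases lie in introns of coding genes. Labels give genes called over genes tested. The gap is widest up to 1 CPM, 28.9% against 54.2%, and narrowest above 5 CPM, 45.3% against 51.4%.

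Among the antisense genes that rose, 8 are described, those of the highest fold change whose groups did not overlap and whose level over all 6 libraries averaged 1 CPM or more. AL133406.2 (chr6:105279016-105281755, plus strand) lies within PREP, a prolyl endopeptidase gene, with 99.2% of its exon bases in coding introns. It stood at 0.175, 0.171 and 0.167 CPM in control and at 2.80, 2.60 and 2.39 CPM in HSD52_OE. Every HSD52_OE library was far above every control library, on only 3 counts in each control library. Its log2 fold change was 3.87 ± 0.37 (adjusted p = 8.56e-07), while PREP stood at -0.06 ± 0.08. AL359922.2 (chr9:21858910-21861926, minus strand) lies within MTAP, an enzyme of methionine salvage, and 91.5% of its single exon is in coding introns. It had 0.409, 0.683 and 0.611 CPM in control and 7.10, 6.50 and 5.89 CPM in HSD52_OE, again with no overlap. Its log2 fold change was 3.50 ± 0.25 (adjusted p = 5.16e-08), and that of MTAP was 0.10 ± 0.08.

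3 others of the 8 also lie within their partner and rose by 2.98 to 3.23 on the log2 scale. AC009318.1, within the fatty acyl-CoA reductase gene FAR2, averaged 0.248 ± 0.0704 CPM in control and 2.38 ± 0.319 CPM in HSD52_OE. AC015849.3, within the RNA-binding protein gene TAF15, averaged 0.304 ± 0.0889 and 2.44 ± 0.766 CPM. TMEM132D-AS1 averaged 0.551 ± 0.177 and 4.73 ± 0.899 CPM, and its partner TMEM132D, a membrane protein gene, was at 0 counts in all 6 libraries. All exon bases of TMEM132D-AS1 lie in coding introns. LINC00893, which overlaps the start of CXorf40A, rose by 2.95 ± 0.40, and AC092159.2, whose promoter is shown above, rose by 2.62 ± 0.31. AC092159.2 stood at 1.05, 0.398 and 0.555 CPM in control and at 3.71, 5.10 and 3.55 CPM in HSD52_OE. TMEM18, a nuclear membrane protein gene on the other side of that start region, also rose, by 0.68 ± 0.10 (adjusted p = 4.99e-05).

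The last of these, AC020916.1 (chr19:13823880-13842928, minus strand), was the most abundant of the 8. It is a single exon of 19049 bp that overlaps the end of ZSWIM4, a zinc finger SWIM domain gene. It had 5.90, 12.3 and 8.27 CPM in control and 72.7, 65.7 and 35.2 CPM in HSD52_OE. The HSD52_OE values were all higher, though replicate 3 was near 50% of the other two. Its log2 fold change was 2.71 ± 0.41 (adjusted p = 0.00407), and ZSWIM4 fell by 1.14 ± 0.14 on the log2 scale (adjusted p = 1.26e-05).

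Few antisense genes fell, and 8 are described by the same limits. HHIP-AS1 (chr4:144642922-144661357, minus strand) is paired with HHIP, which encodes a hedgehog-binding antagonist. HHIP-AS1 had 2.04, 3.36 and 2.89 CPM in control and 0.753, 1.35 and 0.559 CPM in HSD52_OE, with no overlap. By the annotation, 88.6% of its exon bases lie in coding introns. It fell by 1.63 ± 0.33 on the log2 scale (adjusted p = 0.000725). HHIP had 7.53, 7.46 and 6.49 CPM in control and 7.70, 6.97 and 4.98 CPM in HSD52_OE, overlapping groups, with a log2 fold change of -0.13 ± 0.17 (adjusted p = 0.553).

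MAFG-DT (chr17:81927829-81930753, plus strand) starts next to MAFG, a small Maf transcription factor gene, without overlapping it or any other gene. It had 19.6, 17.8 and 17.4 CPM in control and 11.2, 9.94 and 9.24 CPM in HSD52_OE, and fell by 0.85 ± 0.12 (adjusted p = 4.10e-05). MAFG stood at 111 ± 10.8 and 103 ± 1.58 CPM (log2 fold change -0.10 ± 0.09, adjusted p = 0.339). AL445524.1, divergent from the translin partner gene TSNAX and overlapping nothing, had 9.92, 9.73 and 8.94 CPM in control and 4.20, 4.37 and 4.32 CPM in HSD52_OE. It fell by 1.15 ± 0.15 (adjusted p = 1.40e-05), and TSNAX stood at -0.02 ± 0.09.

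AF213884.3, a single exon that starts 10 bp from NFKB1, a subunit gene of NF-κB, fell by 1.62 ± 0.36 (adjusted p = 0.00154). Here the partner fell too, from 112 ± 16.9 to 69.3 ± 3.19 CPM (log2 fold change -0.70 ± 0.10, adjusted p = 4.35e-05). AL161772.1, which overlaps the start of the cytokine gene IL17D, fell by 1.14 ± 0.26, and IL17D fell by 0.72 ± 0.26 (adjusted p = 0.0310). RAET1E-AS1 fell by 1.57 ± 0.24, from 3.68, 4.72 and 4.33 CPM to 1.72, 1.51 and 1.07 CPM. TAPT1-AS1 fell by 1.41 ± 0.34 and FOXN3-AS1, within the forkhead gene FOXN3, by 1.03 ± 0.26, while TAPT1 and FOXN3 stood at -0.07 and -0.17 and were not called.

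**Figure D3:**
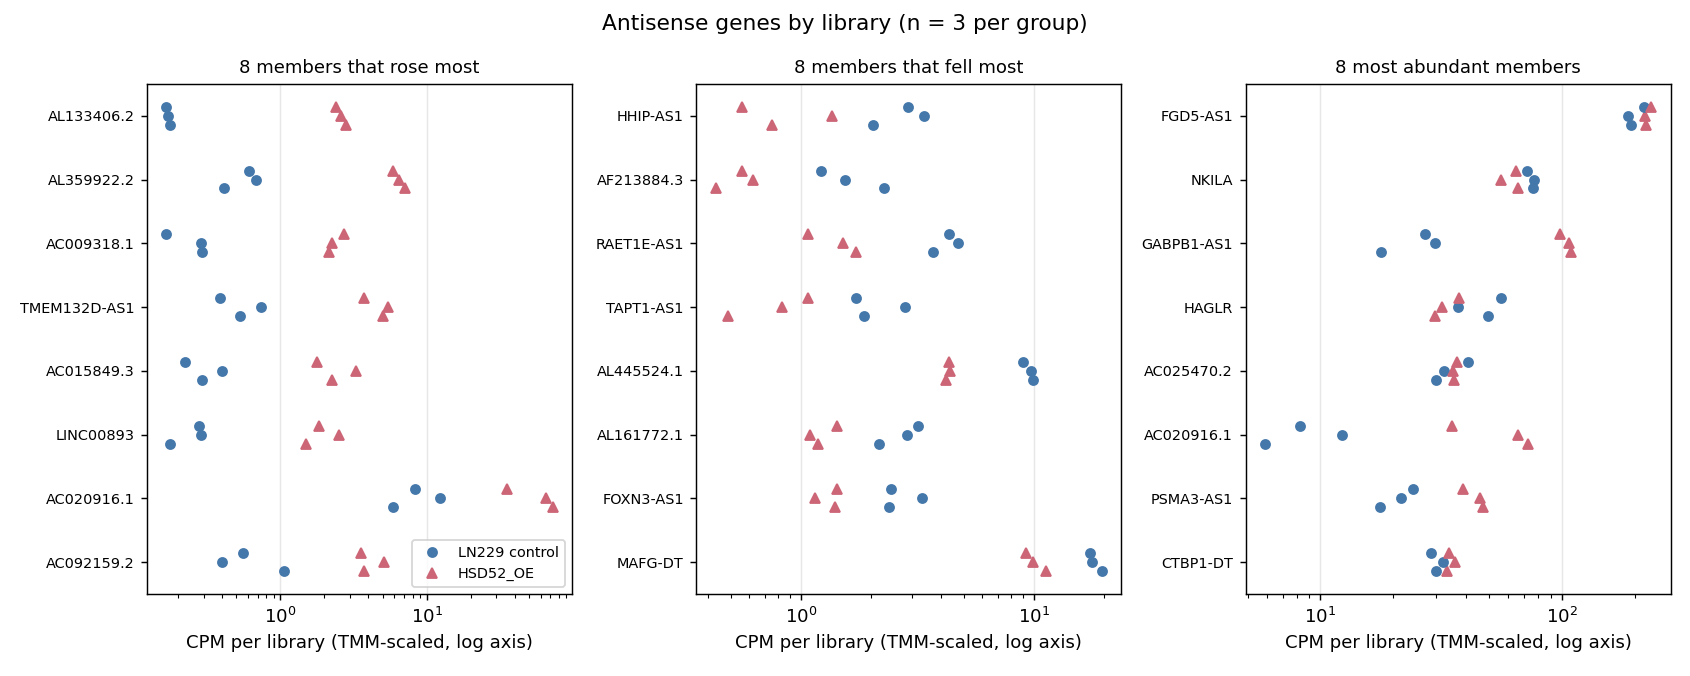
CPM in each library (log axis) of the 8 antisense genes that rose most, the 8 that fell most, and the 8 most abundant, with control libraries as blue circles and HSD52_OE libraries as red triangles. The groups do not overlap in the left and middle panels, where genes were picked for that, and in the right panel they overlap for HAGLR and AC025470.2.

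The 8 most abundant antisense genes differed among themselves. FGD5-AS1, by far the most abundant, stood at 194, 187 and 218 CPM in control and at 224, 221 and 234 CPM in HSD52_OE. The HSD52_OE values were all higher but by little, and the difference was not called (log2 fold change 0.18 ± 0.09, adjusted p = 0.0934). It was called with library totals and without control replicate 3 (0.30 and 0.24, adjusted p = 0.00966 and 0.00968), and its adjusted p ran up to 0.303. NKILA, named for its interaction with NF-κB, overlaps the start of PMEPA1, an inhibitor of TGF-β signalling. It fell from 74.9 ± 2.46 to 62.1 ± 5.18 CPM (log2 fold change -0.27 ± 0.09, adjusted p = 0.0169), and PMEPA1 fell by 0.35 ± 0.10. The call on NKILA was lost with library totals and without HSD52_OE replicate 2, with adjusted p up to 0.179.

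GABPB1-AS1 (chr15:50354959-50372202, plus strand) overlaps the first 450 bp of GABPB1, which encodes a subunit of the ETS factor GA-binding protein. It had 17.7, 29.9 and 27.1 CPM in control and 110, 107 and 98.6 CPM in HSD52_OE, rising by 2.08 ± 0.15 (adjusted p = 1.82e-07). GABPB1 had 24.9, 29.3 and 25.8 CPM in control and 23.7, 27.6 and 27.1 CPM in HSD52_OE, with overlapping groups (log2 fold change -0.03 ± 0.10, adjusted p = 0.833). Of the exon bases of GABPB1-AS1, 0.151% lie in coding introns. PSMA3-AS1, at the end of a proteasome subunit gene, rose by 1.05 ± 0.12 from 21.2 ± 3.25 to 43.9 ± 4.24 CPM, and PSMA3 was not called. For PSMA3-AS1 the share of exon bases in coding introns is 96.6%. HAGLR of the HOXD cluster fell by 0.53 ± 0.13 (adjusted p = 0.00351) although its groups overlapped, with 49.4, 37.3 and 55.9 CPM in control and 29.8, 31.8 and 37.4 CPM in HSD52_OE. AC025470.2 and CTBP1-DT were not called (log2 fold changes 0.06 ± 0.11 and 0.19 ± 0.09). The first changed sign in 1 alternative setting, and CTBP1-DT was called with library totals (adjusted p = 0.0112).

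The antisense gene was then compared with its own coding partner. For 764 pairs both genes were tested, and for 90 other tested antisense genes the partner was too low. Of these pairs, 95 rose on both sides, 77 had a higher antisense gene with a lower partner, 10 fell on both sides, and 0 had a lower antisense gene with a higher partner. The antisense gene rose with no call on the partner in 160 pairs and fell so in 9. In 185 pairs neither was called, in 77 only the partner rose and in 151 only the partner fell. Of the 729 distinct partners tested, 159 rose and 229 fell, and their median log2 fold change was -0.06. Of all 13155 coding genes tested, 21.4% rose and 30.1% fell, also with a median of -0.06. With 42.6% of tested antisense genes higher and 30.1% of coding genes lower, some opposite pairs arise from these shares alone. The count of 77 opposite pairs was not tested against them, and it was 49 without HSD52_OE replicate 2. Over the 764 pairs, which share the same 6 libraries and, where they overlap, may share reads, Spearman's rho between the log2 fold changes was 0.26. By class it was 0.24 within the partner, 0.34 head to head, 0.13 tail to tail, 0.40 for spanning and 0.38 for divergent pairs.

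A test of the difference within pairs was made with limma on log2 CPM (antisense gene minus partner) over all 2574 non-coding genes with a tested partner. The antisense gene moved up relative to its partner in 332 of 764 pairs and down in 26, and 406 were not called. Of all 2574 pairs, 38.3% moved up and 7.38% down, and the median difference was 0.61 for the antisense genes against 0.51 for all pairs, which include the antisense pairs. Per kilobase of exon, the median antisense gene stood at a log2 level of -3.30 relative to its partner in control and -2.58 in HSD52_OE. In 102 pairs the antisense gene had the higher level per kilobase in control, and in 122 in HSD52_OE.

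**Figure D4:**
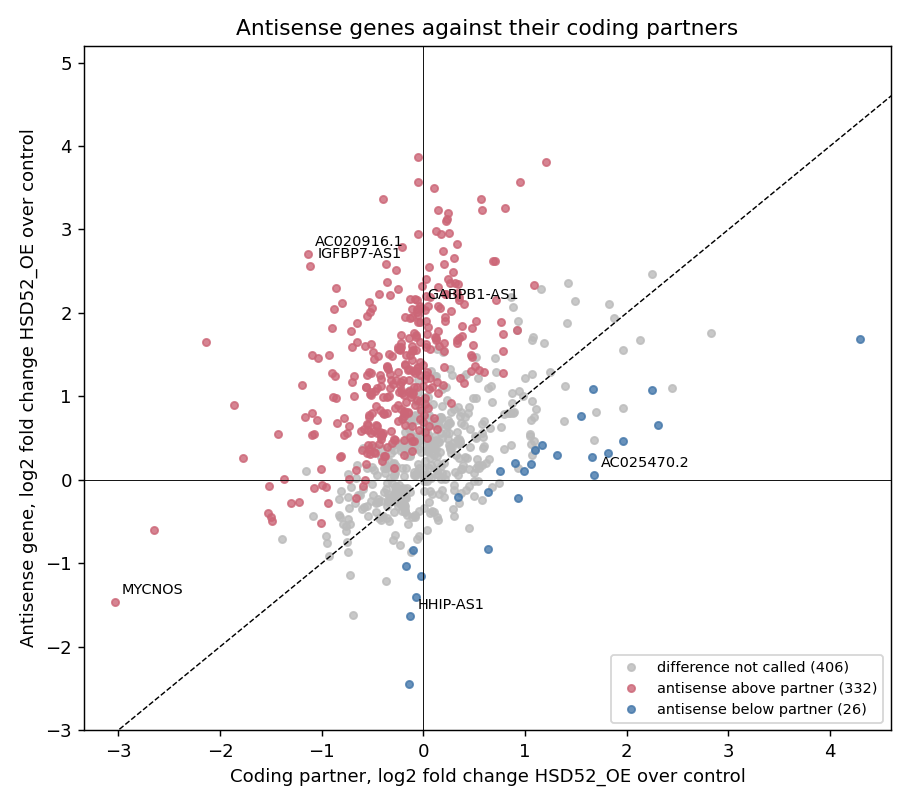
Log2 fold change, HSD52_OE over control, of each antisense gene against that of its coding partner (764 pairs), coloured by the limma test of the difference, with the line of equal change dashed. The 332 red points above the line outnumber the 26 blue points below it, and the cloud is centred near 0 on the partner axis.

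The pairs with the widest differences included those of secreted factors. AC020916.1 against ZSWIM4 had the largest difference, 3.83 ± 0.51 (log2, SE, limma adjusted p = 0.00245). IGFBP7-AS1 (chr4:57109762-57205510, plus strand) overlaps the first 624 bp of IGFBP7, a secreted binding protein of insulin-like growth factors. It had 0.525, 0.797 and 0.611 CPM in control and 4.52, 3.54 and 3.50 CPM in HSD52_OE, and rose by 2.57 ± 0.27 (adjusted p = 2.60e-06). IGFBP7 had 307, 256 and 214 CPM in control and 126, 117 and 115 CPM in HSD52_OE, and fell by 1.12 ± 0.11 (adjusted p = 1.41e-06). Neither gene's groups overlapped, and the pair differed by 3.50 ± 0.29 (adjusted p = 8.54e-08).

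AL133406.2 and AL359922.2 differed from PREP and MTAP by 3.33 ± 0.35 and 3.20 ± 0.26. GAS6-AS1 runs into GAS6, the secreted ligand of the TYRO3, AXL and MERTK receptors. It had 3.68, 5.86 and 4.38 CPM in control and 20.2, 20.0 and 17.4 CPM in HSD52_OE, while GAS6 had 9.51, 11.0 and 7.94 CPM and then 5.22, 6.19 and 4.06 CPM. GAS6-AS1 rose by 2.04 ± 0.16, GAS6 fell by 0.88 ± 0.18, and the pair differed by 2.92 ± 0.19. Of the exon bases of GAS6-AS1, 93.3% lie in coding introns.

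At the other end, among pairs whose antisense gene was itself called and averaged at least 1 CPM, HHIP-AS1 had the lowest difference, -1.43 ± 0.32 (limma adjusted p = 0.00160). AL162231.2 followed at -1.35 ± 0.32, although its own fall of 0.84 was lost in 8 of 13 alternative settings. DLGAP1-AS1 differed from the postsynaptic scaffold gene DLGAP1 by -1.32 ± 0.28 while both rose, by 0.46 ± 0.15 and 1.96 ± 0.38. The call on DLGAP1-AS1 was lost without HSD52_OE replicate 3 (adjusted p = 0.128). TAPT1-AS1, AL445524.1 and FOXN3-AS1 differed from their partners by -1.26, -1.11 and -0.80. AC025470.2 was not called itself, and its difference of -1.48 ± 0.19, lower than that of HHIP-AS1, came with a rise of the actin-like gene ACTBL2 by 1.68 ± 0.34. ACTBL2 was low, at 0.642 ± 0.222 CPM in control and 2.08 ± 0.541 CPM in HSD52_OE. So was DLGAP1, at 0.585 ± 0.214 and 2.30 ± 0.886 CPM. CTBP1-DT was 0.75 ± 0.15 above the transcriptional corepressor gene CTBP1 (adjusted p = 0.000861), which fell by 0.57 ± 0.09.

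Antisense genes were also grouped in broad lists by the role of a gene they accompany, with partners by coordinate. Some genes fit their list loosely, such as GABPB1-AS1, at an ETS factor subunit gene but in the housekeeping list. In the HOX clusters, which hold the factors that set position along the body axis, 8 antisense genes were included. HOXB-AS3 and HOXA-AS2 rose, HAGLR fell and 5 were not called (median log2 fold change 0.20), while 6 of 7 tested partners fell and 1 rose, against 30.1% and 21.4% of all coding genes tested, the shares beside which the partner counts of each list stand. HOXB-AS3 rose by 1.90 ± 0.21, from 1.63 ± 0.159 to 6.09 ± 1.03 CPM, and HOXB3 rose by 0.76 ± 0.13. HOXA-AS2 (log2 fold change 0.49 ± 0.17) lost its call in 5 of 13 settings, with adjusted p from 0.00815 to 0.128. In the pair test 5 of 7 HOX antisense genes moved up relative to the partner and 0 down.

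Beside transcription factor genes, 15 antisense genes were included, of which 4 rose and 3 fell (median 0.19). Of their 15 partners 0 rose and 11 fell, with a median of -0.66, and 10 of 15 antisense genes moved up relative to the partner and 1 down. MYCNOS (chr2:15921037-15942249, minus strand) overlaps the start of the oncogene MYCN. MYCN had 30.0, 30.1 and 35.9 CPM in control and 3.93, 3.59 and 4.16 CPM in HSD52_OE, and fell by 3.04 ± 0.13 (adjusted p = 3.18e-10). MYCNOS had 0.992, 1.48 and 1.72 CPM in control and 0.538, 0.520 and 0.457 CPM in HSD52_OE, and fell by 1.46 ± 0.36 (adjusted p = 0.00330). Both genes of the pair were lower in every HSD52_OE library, MYCN by more, and the pair differed by 1.73 ± 0.35.

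NR2F1-AS1 and the nuclear receptor gene NR2F1 also fell together, by 0.44 ± 0.14 and 1.50 ± 0.11, and the call on NR2F1-AS1 was lost with library totals and without HSD52_OE replicate 1 (adjusted p up to 0.0741). GATA2-AS1 rose by 1.66 ± 0.36 from 0.534 ± 0.174 to 1.69 ± 0.363 CPM, and GATA2, a zinc finger factor of blood cell development, fell by 0.65 ± 0.12. ZNF32-AS2 rose by 1.55 ± 0.45 with no call on ZNF32. CEBPB-AS1, chosen after its values were seen, rose by 0.90 ± 0.33 while CEBPB, a leucine zipper factor of the acute phase, fell from 356 ± 11.2 to 97.9 ± 1.94 CPM (log2 fold change -1.86 ± 0.08). The call on CEBPB-AS1 was lost in 5 of 13 settings, among them DESeq2, with adjusted p up to 0.139.

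Of 10 antisense genes in the list for adhesion, matrix, receptor and cytokine genes, 3 rose and 1 fell (median 0.39). Of their 8 tested partners, 1 rose and 4 fell. GAS6-AS1 and RAET1E-AS1 are given above. TRAF3IP2-AS1 rose by 1.02 ± 0.23, and TRAF3IP2, an adaptor of the interleukin 17 receptor, fell by 0.53 ± 0.13. PDCD4-AS1 rose by 0.68 ± 0.22 together with PDCD4 (0.37 ± 0.10), and lost its call without control replicate 1 (adjusted p = 0.0524). VIM-AS1 stood at 2.95 ± 0.637 and 4.12 ± 0.600 CPM and was not called, other than with library totals (adjusted p = 0.0308).

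Of 6 antisense genes in the list for cell cycle and DNA maintenance genes, 2 rose and 0 fell (median 0.10), and 2 of 5 tested partners rose. CDKN2B-AS1, also called ANRIL, had 1.11, 1.59 and 1.55 CPM in control and 6.67, 6.19 and 5.23 CPM in HSD52_OE. It rose by 2.08 ± 0.22 (adjusted p = 2.00e-06), with CDKN2B, an inhibitor of cyclin-dependent kinases that it spans, at 0 counts in every library. TMPO-AS1 rose by 0.68 ± 0.14 and the nuclear lamina gene TMPO by 0.26 ± 0.08. MCM3AP-AS1 and KIF9-AS1 stood at 0.36 and -0.27 and were not called.

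Of 22 antisense genes in the list for housekeeping genes of RNA, protein and energy metabolism, 8 rose and 1 fell (median 0.42). Of their 18 tested partners, not all of them housekeeping genes, 8 rose and 3 fell. PSMD6-AS2 rose by 3.23 ± 0.51, on 1, 2 and 5 counts in control and 36, 29 and 20 in HSD52_OE, and the proteasome gene PSMD6 rose by 0.58 ± 0.08. STARD4-AS1, which in these coordinates runs into NREP, rose by 1.84 ± 0.11 from 7.48 ± 0.569 to 26.9 ± 0.821 CPM, and NREP rose by 0.38 ± 0.09. THAP9-AS1 and THAP9 rose by 0.81 ± 0.14 and 0.89 ± 0.17, a pair whose difference of -0.08 ± 0.17 was not called. Of the exon bases of STARD4-AS1 and THAP9-AS1, 82.1% and 84.5% lie in coding introns. Against 42.6% of all antisense genes tested, the shares that rose were 25.0%, 26.7%, 30.0%, 33.3% and 36.4% in the order of the 5 lists, and no list's share was tested against the rest.

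**Figure D5:**
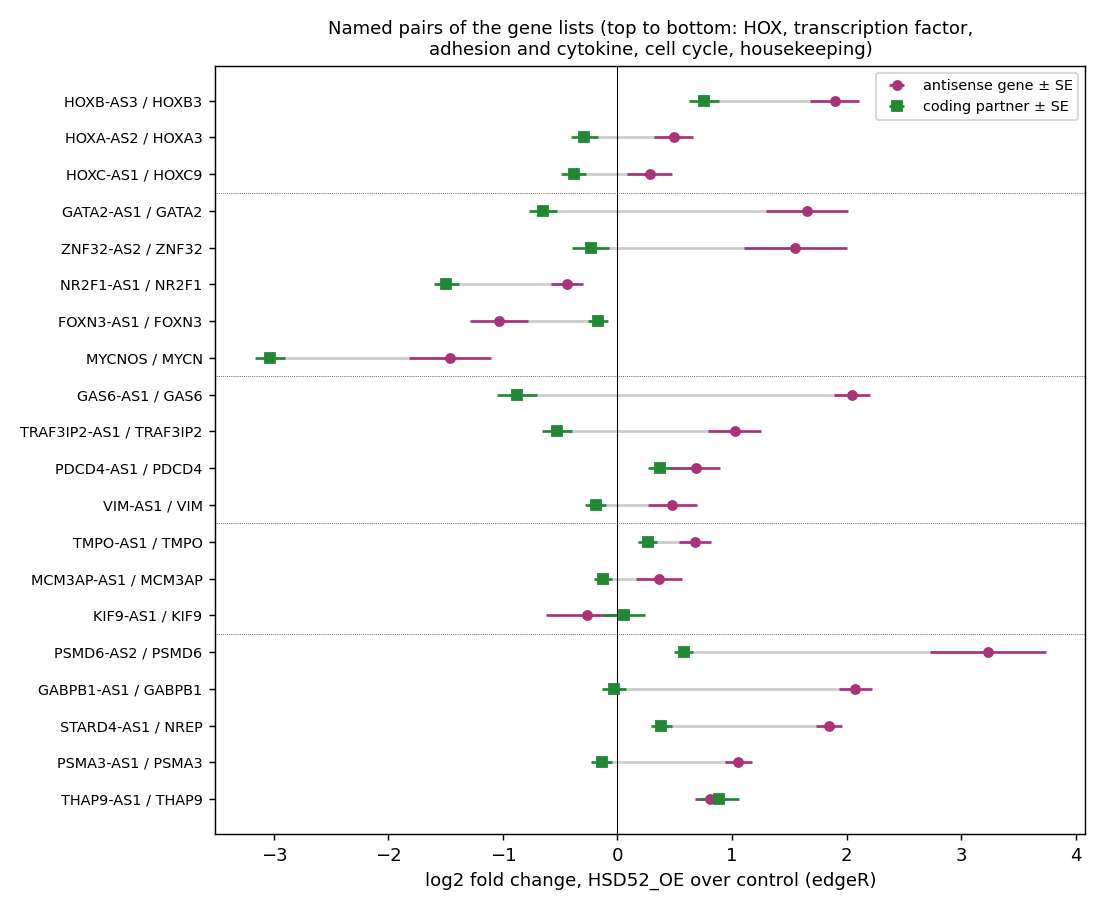
Log2 fold change, HSD52_OE over control, with its SE, of the named antisense genes of the 5 lists (purple circles) and of their coding partners (green squares), for most pairs with both genes tested. MYCNOS and MYCN lie lowest, at -1.46 and -3.04, and GATA2-AS1, GAS6-AS1 and TRAF3IP2-AS1 lie above 0 with partners below it.

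A few antisense genes carry microRNA hairpins on their own strand. RefSeq places 10 hairpins within 7 of the 866 genes, of which 5 rose, 0 fell and 2 were not called, against 42.6% higher and 2.93% lower of all antisense genes tested. AC020916.1, described above for its rise, contains the hairpins of miR-23a, miR-27a and miR-24-2. GABPB1-AS1, which also rose, contains that of miR-4712. DLEU2, the antisense gene that spans TRIM13, contains miR-15a and miR-16-1, whose mature 5p strands share a seed. The mature strands below show what these 2 loci encode, with the seed, bases 2 to 8, in capitals.
hsa-miR-23a-3p: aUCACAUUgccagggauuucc
hsa-miR-27a-3p: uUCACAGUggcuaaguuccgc
hsa-miR-24-3p: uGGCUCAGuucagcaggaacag
hsa-miR-15a-5p: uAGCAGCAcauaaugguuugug
hsa-miR-16-5p: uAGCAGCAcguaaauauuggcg
DLEU2, chosen after its values were seen, had 4.09, 7.06 and 6.49 CPM in control and 8.07, 9.00 and 7.92 CPM in HSD52_OE. Its log2 fold change of 0.50 ± 0.18 (adjusted p = 0.0319) was small beside that of AC020916.1. ENTPD1-AS1, host of miR-3157, rose by 0.37 ± 0.14, and MIR762HG, host of miR-762, by 1.05 ± 0.41 with overlapping groups. DLEU2 lost its call in 4 of 13 settings, ENTPD1-AS1 in 6 of 13 and MIR762HG in 6 of 12, with adjusted p up to 0.151, 0.132 and 0.190. AC234582.1, which contains miR-92b, and RAB11B-AS1, which contains miR-4999, were not called, though the first was in 2 of 12 settings. Mature microRNAs were not measured here.

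Genes at the edge of the rule show how few counts stand behind the lowest ones. Just inside, with a sum of 60, AC004241.1 had 6, 6 and 7 counts in control and 16, 7 and 18 in HSD52_OE. AC004771.5 had 11, 5 and 1, then 21, 13 and 9, and AC004923.4 had 10, 9 and 6, then 9, 21 and 5. Just outside, with a sum of 59, AL365259.1 had 10, 1 and 11, then 12, 10 and 15, ATXN2-AS had 7, 10 and 10, then 13, 11 and 8, and RNASEH2B-AS1 had 2, 6 and 5, then 15, 14 and 17. At this depth a gene with about 10 counts per library carries a wide counting error, and 115 of the 866 genes had a sum of 600 or more. Among those 115, 55 rose and 9 fell, and the median log2 fold change was 0.36.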

How the data were processed

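The deposited values were whole-number read counts per gene, with no normalization, for 6 libraries. The submitters' processing notes name CASAVA, alignment with HISAT2 2.0.5 (hg38) and featureCounts 1.5.0-p3. Neither the strand setting nor the handling of reads over more than 1 gene was given in the sources used here. All 58735 rows matched GENCODE 29 in coordinates, strand and biotype, and exons and introns were taken from it. Promoters and microRNAs came from RefSeq (GRCh38.p14).

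Genes were filtered with filterByExpr, scaled by TMM and compared with the quasi-likelihood test of edgeR 4.0.16 (R 4.3.3, robust, 2-sided, group alone). Pair differences used limma 3.58.1 on log2 CPM with a prior count of 2. Both steps were also run on simulated data. There, only non-coding genes with a mean above 2 CPM were changed and no coding gene was, unlike in these data. Those runs therefore say nothing on changed genes of lower level or on changed partners. Values after ± are the SD for levels and the SE for log2 fold changes, and adjusted p-values without a named tool are edgeR's.

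The members, lists and tests were chosen with earlier results of these data known. Genes were named by fold (8 per end, mean of at least 1 CPM, groups apart), abundance (8), smallest p per list (up to 5), pair difference (6 per end) and closeness to the count limit (3 per side). The look-up of microRNA hairpins was added after the data were seen. The pair of MAFG-DT is divergent rather than overlapping in the table. Alternatives were RLE factors, library totals, no filter, limma-voom, DESeq2 1.42.0, a filter of 1 CPM in 3 libraries, leaving out each library, a replicate block, members overlapping no other gene and members with 600 counts. Some genes that the naming rule chose are not reported here.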

Additional observations from a re-analysis of the deposited data

How the results depend on the processing

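Over 711 comparisons of 55 antisense genes with an alternative setting, 47 chosen by rule and 8 after their values were seen, no call reversed, 665 kept their side of the threshold, 40 lost the call and 6 gained it. Library totals in place of TMM gave 14 lower antisense genes and a median log2 fold change of 0.71, but moved the median of all genes by 0.12, and the antisense median less that of all genes was 0.58 in both. Without a filter, the median of all genes moved by 0.22 and the antisense excess over it was 0.33. Restricting to antisense genes that overlap no other gene left 33 higher, 5 lower and a median of 0.47 (n = 77), and restricting to sums of 600 counts left 55, 9 and 0.36 (n = 115), both on fewer genes. Leaving out 1 library at a time gave 299 to 360 higher, 16 to 25 lower, medians of 0.58 to 0.67, and 49 to 84 opposite pairs. The lowest count of opposite pairs and of lower genes came without HSD52_OE replicate 2, and the highest median without control replicate 2; the cause was not tested. DESeq2 called 315 higher and 19 lower, all of them also called by edgeR.

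The replicate numbers were not stated to pair libraries. Deviations of same-numbered libraries correlated at 0.0307 to 0.0383, and those of differently numbered libraries at -0.0218 to -0.0127. No block was used, since these values were under the limit of 0.1 set for pairing, although only the same-numbered correlations were positive. With a replicate block, 376 antisense genes were higher and 27 lower. Depth limits the low genes most, since 1 CPM is about 18 counts, and counts carry no molecular identifiers.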

Other observations

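The upward lean was present on each chromosome with members. The highest shares of tested antisense genes that rose were on chromosome 22 (19 of 27), chromosome X (10 of 16), chromosome 16 (28 of 46) and chromosome 10 (20 of 34), none of which had a lower gene. The lowest share was on chromosome 5, with 10 of 41 higher and 2 lower. Chromosome 1 had the most lower genes, 4 beside 37 of 91 higher, and chromosomes 4 and 9 had 3 each, beside 10 of 33 and 9 of 24 higher. Members on a chromosome can share a partner or overlapping reads, and the differences between chromosomes were not tested.

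Below the 1 CPM limit used for naming, TCERG1L-AS1 had 0, 3 and 0 counts in control and 25, 33 and 35 in HSD52_OE, and AP000721.2 had 22, 22 and 23 counts in control and 6, 5 and 2 in HSD52_OE. Both are named for having the highest and the lowest fitted fold change, a choice made on their values. TCERG1L-AS1 lies within TCERG1L, and AP000721.2 within MACROD1, which was not called.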
